A study of Mus musculus with 27 samples.

Results

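Trimethylation of histone H3 at lysine 4 (H3K4me3) and at lysine 27 (H3K27me3) was compared at the transcription start sites (TSSs) of mouse embryonic fibroblasts (MEFs). All 20155 genes of the expression tables with usable coordinates were included, and 7 of the 27 samples of the series define the comparison: 2 libraries of each mark, 1 of H3K9me3 and 2 of mRNA. Values of 2 MEF libraries of total H3 and of the same marks and mRNA in the other cell types are set beside them. For each gene the reads of called nucleosomes within 1000 bp either side of its TSS were summed, scaled to the summed reads of the library, and expressed as RPKM, reads per kilobase of window scaled to library size. The measure of interest was the log2 ratio of H3K4me3 to H3K27me3 with both replicates of each mark, and a mark was called present above 1 RPKM in both replicates.

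The series follows somatic cell reprogramming from MEFs through pre-iPSCs to induced pluripotent stem cells (iPSCs). The MEFs came from e13.5 embryos hemizygous for an Oct4-GFP transgenic allele and a Rosa26 allele, on a background of CBA/CaJ and C57BL/6J, crossed to 129Sv/Jae females per the study's methods, and were used within a few passages. Pre-iPSCs and iPSCs were induced from such MEFs with retroviruses carrying the 4 Yamanaka factors, and all cells therefore share the Oct4-GFP and Rosa26 alleles. Mononucleosomes were released with micrococcal nuclease (MNase) before immunoprecipitation, and the MNase amount and time used for MEFs differed from those used for the other cells. The labels call the libraries of each assay biological replicates but do not tie them to embryos, so p-values measure the spread between these libraries.

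H3K4me3 is laid down by Set1 and MLL complexes at the promoters of active genes and at most promoters rich in CpG dinucleotides. H3K27me3 is laid down by the Polycomb repressive complex PRC2 and marks silent developmental genes, and promoters carrying both marks are often called bivalent. In a population of cells the presence of both marks at one promoter does not show that they sit on the same nucleosome, allele or cell. H3K9me3 is a mark of heterochromatin, kept here beside the pair.

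Promoter sequences of 7 genes are shown to make visible how the ends of the ratio and the genes with both marks differ in CpG content; each runs 5′ to 3′ on the gene's own strand from 270 bases before the TSS through the first 30 transcribed bases in mm9, with every CG dinucleotide in capitals. Gapdh, a glycolysis enzyme, and Brd2, a bromodomain reader of acetylated histones, stand for promoters with H3K4me3 alone. Skor1 is a transcriptional corepressor, and Pax3 a paired homeobox factor of neural crest and muscle precursors. Skor1 and Pax3 carried both marks at the highest levels among genes with ordinary H3 signal. Tcfcp2l1, a transcription factor of naive pluripotency, carried both close to the threshold of 1 RPKM. Cd7, a surface protein of lymphocytes, and Lep, the adipocyte hormone leptin, were at the H3K27me3 end.
Gapdh (chr6:125115572-125115871, minus strand): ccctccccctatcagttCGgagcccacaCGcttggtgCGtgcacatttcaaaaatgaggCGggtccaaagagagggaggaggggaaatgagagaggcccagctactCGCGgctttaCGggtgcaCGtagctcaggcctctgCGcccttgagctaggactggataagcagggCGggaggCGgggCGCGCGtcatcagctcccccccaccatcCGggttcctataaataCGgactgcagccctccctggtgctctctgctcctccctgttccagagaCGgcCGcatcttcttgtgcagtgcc
Brd2 (chr17:34259523-34259822, minus strand): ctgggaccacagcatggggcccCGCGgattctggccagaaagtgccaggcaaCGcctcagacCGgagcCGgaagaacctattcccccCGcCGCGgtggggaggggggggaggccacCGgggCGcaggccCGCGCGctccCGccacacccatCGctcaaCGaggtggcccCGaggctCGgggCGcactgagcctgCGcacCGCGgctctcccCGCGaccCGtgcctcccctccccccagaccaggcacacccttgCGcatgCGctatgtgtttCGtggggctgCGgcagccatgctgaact
Skor1 (chr9:62994758-62995057, minus strand): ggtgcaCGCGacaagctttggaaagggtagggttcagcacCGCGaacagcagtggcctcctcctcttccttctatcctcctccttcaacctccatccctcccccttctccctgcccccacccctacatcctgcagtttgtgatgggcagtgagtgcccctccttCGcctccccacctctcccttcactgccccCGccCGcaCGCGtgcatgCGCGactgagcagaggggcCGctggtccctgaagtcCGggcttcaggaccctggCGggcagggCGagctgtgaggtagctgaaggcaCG
Pax3 (chr1:78193682-78193981, minus strand): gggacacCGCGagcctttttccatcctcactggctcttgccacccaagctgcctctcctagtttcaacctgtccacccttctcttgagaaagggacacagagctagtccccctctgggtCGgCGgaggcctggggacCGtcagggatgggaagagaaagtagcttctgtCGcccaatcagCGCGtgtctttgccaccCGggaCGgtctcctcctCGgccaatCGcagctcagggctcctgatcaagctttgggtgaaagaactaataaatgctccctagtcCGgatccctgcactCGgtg
Tcfcp2l1 (chr1:120524252-120524551, plus strand): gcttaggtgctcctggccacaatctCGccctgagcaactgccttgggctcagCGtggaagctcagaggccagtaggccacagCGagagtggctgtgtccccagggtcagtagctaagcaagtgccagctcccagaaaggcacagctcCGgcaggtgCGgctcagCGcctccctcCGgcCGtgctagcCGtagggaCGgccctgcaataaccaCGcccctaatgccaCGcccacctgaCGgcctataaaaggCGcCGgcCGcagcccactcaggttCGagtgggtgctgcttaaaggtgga
Cd7 (chr11:120900763-120901062, minus strand): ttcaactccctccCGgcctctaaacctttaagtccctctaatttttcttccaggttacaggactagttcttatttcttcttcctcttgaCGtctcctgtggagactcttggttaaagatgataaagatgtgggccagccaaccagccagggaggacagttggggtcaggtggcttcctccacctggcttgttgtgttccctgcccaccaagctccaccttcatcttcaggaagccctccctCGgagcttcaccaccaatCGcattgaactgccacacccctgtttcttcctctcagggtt
Lep (chr6:29009951-29010250, plus strand): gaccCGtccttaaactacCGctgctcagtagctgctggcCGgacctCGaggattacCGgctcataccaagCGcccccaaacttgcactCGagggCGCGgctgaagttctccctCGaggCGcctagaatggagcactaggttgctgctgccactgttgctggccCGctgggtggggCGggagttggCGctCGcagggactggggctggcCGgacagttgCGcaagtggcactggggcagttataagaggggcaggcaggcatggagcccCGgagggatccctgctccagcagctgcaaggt

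These 300 bases held 18 CG dinucleotides in Gapdh, 29 in Brd2, 16 in Skor1, 14 in Pax3 and 17 in Tcfcp2l1. Cd7 held 4 and Lep 18, so the genes at the H3K27me3 end were not alike in this respect. The search was for the letters CG, which read the same on both strands, and 95.2% of all promoters of this length held at least 1.

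The H3K4me3 libraries held 12007350 and 12686278 reads in called nucleosomes, the H3K27me3 libraries 13363460 and 15222040, and the H3K9me3 library 12404217. A window at 1 RPKM rests on about 24 to 30 reads, and counting error alone gives it an exact Poisson 95% interval of about 0.64 to 1.49 RPKM. Replicates correlated across genes with a Pearson r of 0.931 for H3K4me3 and 0.846 for H3K27me3, on log2 RPKM over 20155 genes that are not independent of each other. All 17 tested fibroblast markers were called H3K4me3 higher, as were 65.1% of all genes tested. None of the 7 tested markers of pluripotent cells was called in either direction, where 4.93% of all genes tested were called H3K27me3 higher. TMM factors are a scaling that assumes most genes alike between libraries. They gave 8 fibroblast markers H3K4me3 higher and 7 pluripotent markers H3K27me3 higher. Of the markers of other cell types, 2 of 7 for blood, 1 of 4 for endothelium and 1 of 7 for epithelium were called H3K4me3 higher. For neural cells it was 1 of 6 and for muscle 0 of 6, and under TMM none in these 5 lists. Called H3K27me3 higher were 1, 0, 0, 2 and 3 in the same order, and under TMM 5, 3, 6, 5 and 6.

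H3K4me3 was found at far more TSSs than H3K27me3. H3K4me3 exceeded 1 RPKM at 12130 genes in replicate 1 and 11125 in replicate 2, and at 10886 in both, which is 89.7% and 97.9% of the lists of each replicate. H3K27me3 exceeded it at 1159 and 1395 genes and at 665 in both, or 57.4% and 47.7% of each list. The H3K27me3 list was therefore less repeatable at this threshold than the H3K4me3 list. The median TSS stood at 1.50 and 1.18 RPKM of H3K4me3 and at 0.224 and 0.263 RPKM of H3K27me3.

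With both replicates of both marks required, 10368 genes (51.4%) carried H3K4me3 only, 200 (0.992%) both marks, 328 (1.63%) H3K27me3 only and 6760 (33.5%) neither, and at 2499 (12.4%) the replicates of a mark fell on different sides of the threshold. Single replicates gave more genes with both marks, 527 and 451, of which the 200 are 38.0% and 44.4%. With libraries scaled to all unique reads in place of reads in called nucleosomes, 21 genes carried both marks, with calls of at least 2 reads 636, and above 2 RPKM 2. Most of the 200 lay close to the threshold. Ranked by the lowest of a gene's 4 values, 113 lay between 1.0 and 1.1 RPKM, 55 between 1.1 and 1.2, 29 between 1.2 and 1.5, 1 between 1.5 and 2 and 2 above 2. Just outside, 187 genes had a lowest value between 0.9 and 1.0 RPKM and 305 between 0.8 and 0.9. The members nearest the threshold inside were Sfrp2, Slc13a5 and Nat8l at 1.01 RPKM, and the nearest outside were Sstr1, Pitx1 and Slfn5 at 0.999 RPKM.

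**Figure D1:**
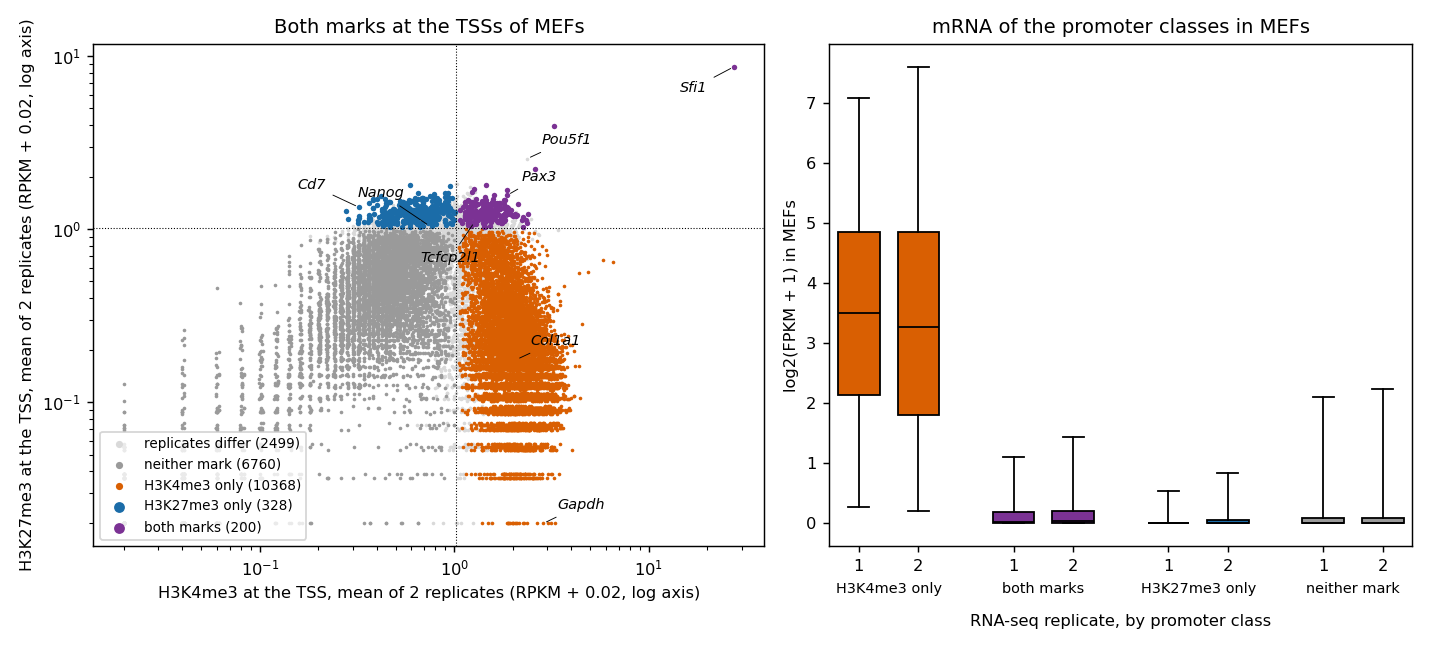
Left, each point is a gene, with the mean H3K4me3 of 2 MEF replicates on the x axis and the mean H3K27me3 on the y axis (RPKM + 0.02, log axes); dotted lines mark 1 RPKM and colours give the promoter classes, 10368 genes with H3K4me3 only, 200 with both marks and 328 with H3K27me3 only. Right, boxes give the quartiles and median, and whiskers the 5th and 95th percentiles, of log2(FPKM + 1) in each of the 2 RNA-seq replicates; the class with H3K4me3 only stands above the other 3.

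The classes differed in transcript level, a readout that did not enter their definition. Genes with H3K4me3 only had median FPKM (fragments per kilobase of transcript, scaled to library size) of 10.3 and 8.64 in the 2 RNA-seq replicates, and 84.4% of them reached 1 FPKM in both. Genes with both marks had medians of 0.0215 and 0.0312, and 6 of 200 (3.0%) reached 1 FPKM in both replicates. Genes with H3K27me3 only had medians of 0 and 0, and 10 of 328 (3.05%) reached it, against 7.46% of genes with neither mark. In single RNA-seq replicates 11 (5.5%) and 19 (9.5%) genes with both marks reached 1 FPKM, against 11 (3.35%) and 14 (4.27%) with H3K27me3 only. The median H3K4me3 of genes with both marks was 1.58 and 1.26 RPKM in the MEF replicates, and that of genes with H3K4me3 only was 2.29 and 1.77.

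The 6 genes with both marks and mRNA were Cxcl14, Aldh1a2, Col2a1, Nkain4, Hoxd10 and Col15a1, named because they are so few. Col2a1, the collagen of cartilage, had 30.9 and 18.3 FPKM with 1.58 and 1.18 RPKM of H3K4me3 and 1.08 and 1.15 of H3K27me3. Cxcl14, a chemokine, had 16.3 and 280 FPKM, a wide spread between the RNA-seq replicates, with 1.91 and 1.65 RPKM of H3K4me3 and 1.38 and 1.22 of H3K27me3. The other 4 had between 1.17 and 7.41 FPKM in each replicate. The 10 genes with H3K27me3 only and mRNA were Cyp26b1, Iqsec1, Tgm4, Zfp385c, Tnk1, Asb8, Degs2, C1qb, Rap1gap and Rap1gap2. For each gene 1 listed TSS was used, and starts elsewhere in these genes were not tested.

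H3K9me3 followed H3K27me3 more than H3K4me3 across these classes. Its median was 0.201 RPKM at genes with H3K4me3 only, 0.564 with both marks, 0.725 with H3K27me3 only and 0.403 with neither, in 1 library. It exceeded 1 RPKM at 185 of all genes (0.918%). Of these, 2 had H3K4me3 only, 51 had neither mark and at 68 the replicates differed. With both marks it was 12 of 200 (6.0%), among them Sfi1, a window of high total H3 described below. With H3K27me3 only it was 52 of 328 (15.9%). Genes of 1 library are not replicates, so these shares are a description. Total H3, the nucleosome signal itself, moved with the median H3K9me3. Its medians in the 2 replicates were 0.245 and 0.229 RPKM with H3K4me3 only and 0.378 and 0.396 with both marks. With H3K27me3 only they were 0.482 and 0.531, and with neither 0.400 and 0.405. The part of nucleosome density in the H3K9me3 difference and in the H3K27me3 levels was not tested. With 1 library the H3K9me3 values have no replicate check.

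CpG content separated the classes as well. The median number of CpG dinucleotides in the 1001 bp around the TSS was 68 with H3K4me3 only, 58 with both marks, 22 with H3K27me3 only and 10 with neither. Median GC content was 60.3%, 60.6%, 55.2% and 45.9% in the same order. In the 300-base promoters the median number of CG dinucleotides was 22, 19, 6 and 3. Of the promoters printed above, Gapdh lay below the median of genes with H3K4me3 only, level with Lep, and Brd2 lay above it. Skor1, Pax3 and Tcfcp2l1 lay below the median of the genes with both marks. Cd7 lay below that of genes with H3K27me3 only, and Lep above it.

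The ratio itself ranged over the genes as a continuum. The counts of 17521 genes passed the filter on low values and were tested with edgeR's quasi-likelihood test. With each library scaled to its own reads, the median gene had a log2 ratio of 2.57. Class medians were 3.69 with H3K4me3 only, 0.22 with both marks, -1.03 with H3K27me3 only and -0.22 with neither. The class definition requires the sign in the classes with a single mark, but not in those with both marks or neither. At a false discovery rate of 0.05 and at least 2-fold, 11405 genes (65.1% of those tested) were called H3K4me3 higher and 864 (4.93%) H3K27me3 higher. Immunoprecipitations with different antibodies have no common zero point: TMM factors moved the median to 0.43 and gave 7155 and 6372 calls. All 864 genes called H3K27me3 higher and 7155 of the 11405 were called alike under TMM, so the direction of the genes between the ends depends on the scaling. Of the 200 genes with both marks, 3 were called H3K4me3 higher (Efhd1, Nptx1 and Kcnc2) and 0 H3K27me3 higher; under TMM the fitted ratios of all 3 turned negative (-1.12, -1.03 and -1.03).

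Along the ratio, mRNA rose and both H3K9me3 and total H3 fell. When genes were ranked by ratio and divided into 10 equal groups, 2.74% and 3.31% of the lowest group reached 1 FPKM in the 2 RNA-seq replicates, against 70.7% and 68.4% in group 5 and 97.6% and 95.8% in the highest. Median H3K9me3 went from 0.564 RPKM in the lowest group to 0.161 in the highest, and median CpG number from 13 to 77. Median total H3 went from 0.489 to 0.208 RPKM in replicate 1 and from 0.525 to 0.184 in replicate 2. On log2 RPKM across all genes, H3K27me3 correlated with total H3 at a Pearson r of 0.67 to 0.73. With H3K9me3 it was 0.71 and 0.72. The part of total H3 in the H3K9me3 and H3K27me3 values, and so in the ratio, was not tested. Across the 17521 genes the ratio had Spearman's rho of 0.787 and 0.755 with FPKM, -0.746 with H3K9me3 and 0.625 with CpG number. These are descriptions over genes that share libraries and base composition. Within genes with H3K4me3 only, rho with FPKM was 0.452 and 0.381.

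At the H3K4me3 end stood genes with mRNA in MEFs and without a single H3K27me3 read. The 10 highest, taken among genes with the mark in both replicates, were Rgl2, 1190005F20Rik, 1200016B10Rik, Gapdh, Ammecr1l, Brd2, Rps15a, Slc25a28, Ubl5 and Sesn1. 1190005F20Rik and 1200016B10Rik start close to each other on opposite strands and share one window, so they count as 1 observation. A fold against 0 reads is a lower bound, computed against 3 reads over both H3K27me3 libraries.

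Rgl2, a Ral guanine nucleotide exchange factor, had 3.83 and 2.68 RPKM of H3K4me3 and 0 and 0 of H3K27me3, at least 61.7-fold. Gapdh had 3.25 and 2.44 RPKM against 0 and 0, at least 54.0-fold, with 2691 and 3591 FPKM. Brd2 had 2.41 and 2.28 RPKM against 0 and 0, at least 44.8-fold, with 66.2 and 30.7 FPKM. The choice of these genes required both H3K4me3 libraries to lie above both H3K27me3 libraries. H3K9me3 at Rgl2, Gapdh and Brd2 was 0.121, 0.161 and 0.0806 RPKM. Rps15a, a protein of the small ribosomal subunit, had 2.83 and 1.69 RPKM against 0 and 0, at least 42.8-fold. Sesn1, a stress-inducible p53 target, had 2.29 and 1.85 against 0 and 0, at least 39.4-fold, with mRNA of 2.34 and 2.42 FPKM. Its mRNA lay above the medians of 1.51 and 1.22 FPKM over all genes. It lay below the medians of 10.3 and 8.64 FPKM of genes with H3K4me3 only. The part of mRNA level in a place at this end was not tested.

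At the H3K27me3 end mRNA was listed at 0 or close to it. The 10 lowest were 1700039E15Rik, Cd7, Tpsb2, Tbx10, Lactbl1, Matn1, Myl10, Entpd8, Olfr1412 and Lep. They were taken among called genes with H3K27me3 in both replicates and no overlap between the libraries of the 2 marks. Cd7 had 0.291 and 0.315 RPKM of H3K4me3 and 1.20 and 1.44 of H3K27me3, a log2 ratio of -2.11 ± 0.46 (SE) with adjusted p = 6.85e-06 by edgeR's quasi-likelihood test with Benjamini-Hochberg adjustment. Tpsb2, a mast cell tryptase, had 0.250 and 0.276 RPKM of H3K4me3 against 1.05 and 1.22 of H3K27me3. The choice of these genes required both H3K27me3 libraries to lie above both H3K4me3 libraries. Tbx10, a T-box factor, had 0.375 and 0.315 against 1.12 and 1.67 RPKM. Matn1, a cartilage matrix protein, had 0.250 and 0.473 against 1.57 and 1.35. Lep had 0.250 and 0.354 against 1.05 and 1.25 RPKM, a log2 ratio of -1.91 ± 0.46 (SE) with adjusted p = 5.58e-05 by edgeR with Benjamini-Hochberg adjustment. H3K9me3 at these 10 genes lay between 0.403 RPKM at Entpd8 and 1.17 RPKM at Olfr1412, an olfactory receptor gene, above the 0.242 of the median gene.

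The lowest of these 10 ratios was -2.24, at 1700039E15Rik, and the H3K4me3 that remained, 0.0832 and 0.433 RPKM there, was not 0. TMM lowered the median ratio over all genes tested from 2.57 to 0.43, and at these 10 genes the fitted ratios became -4.37 to -4.05. Their direction under TMM is thus no separate check.

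**Figure D2:**
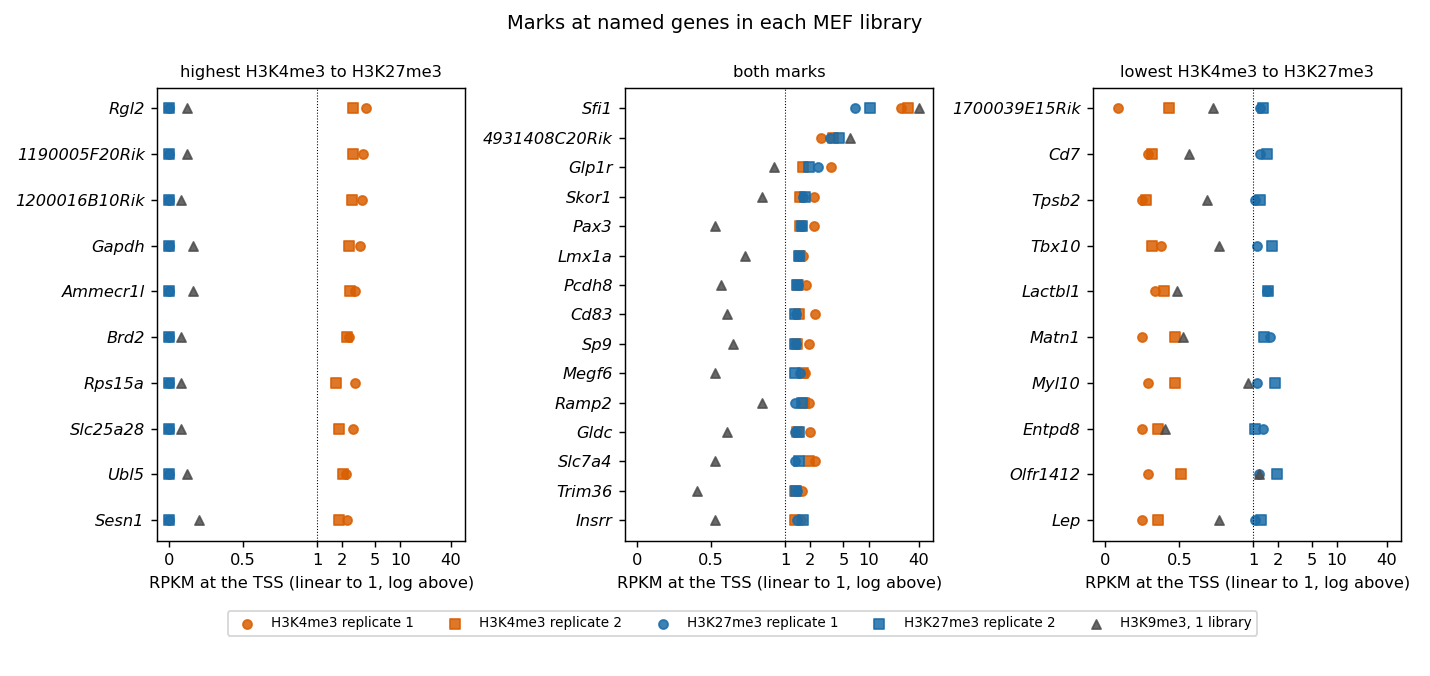
RPKM at the TSS in each MEF library (axis linear to 1 and logarithmic above; circles and squares are replicates 1 and 2, triangles the 1 H3K9me3 library) for the 10 genes at each end and the 15 genes with the highest lowest value of both marks. H3K27me3 lies at 0 in all genes of the left panel, all 4 values of both marks lie above 1 in the middle, and the marks lie on opposite sides of 1 on the right.

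A few windows stood apart among the 200 genes with both marks. Sfi1, a centrosomal protein, had 24.6 and 30.1 RPKM of H3K4me3 and 6.92 and 10.4 of H3K27me3, but also 40.2 of H3K9me3 and 13.1 and 14.8 of total H3. Sfi1, 4931408C20Rik and Heatr7b1 exceeded 1 RPKM of total H3 in both replicates, where the median gene has 0.289 and 0.278. All 3 marks were high there together with total H3, whose part in them was not tested. Glp1r, the glucagon-like peptide receptor, had 3.54 and 1.61 RPKM of H3K4me3 and 2.47 and 1.94 of H3K27me3, with 1.19 and 0.984 of H3.

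The next genes had total H3 below 1 RPKM. Skor1 had 2.21 and 1.50 RPKM of H3K4me3 and 1.65 and 1.71 of H3K27me3, with H3K9me3 of 0.846. Pax3 had 2.21 and 1.50 against 1.53 and 1.58 RPKM. Lmx1a, a LIM homeobox factor of dopaminergic neurons, had 1.62 and 1.50 against 1.46 and 1.48 RPKM. The 2 marks overlapped at Skor1 and Pax3, at Lmx1a both H3K4me3 libraries lay just above H3K27me3, and the ratio was close to that of equal scaled reads: 0.14 ± 0.39 (SE) for Skor1, 0.25 ± 0.38 for Pax3 and 0.09 ± 0.38 for Lmx1a on the log2 scale. Pcdh8, a protocadherin, had 1.79 and 1.42 against 1.42 and 1.38. Sp9, a zinc finger factor of limb and brain, had 1.91 and 1.38 against 1.35 and 1.31. Gldc, the glycine decarboxylase, had 2.00 and 1.38 against 1.31 and 1.48. Cd83, Megf6, Ramp2, Slc7a4, Trim36 and Insrr make up the rest of the 15 with the highest lowest value, and their mRNA was at most 1.59 FPKM, reached by Ramp2, a co-receptor of the adrenomedullin receptor.

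Genes with both marks are 0.992% of all genes. Of the lists of transcription factors named here, the longest, that of homeobox factors, held the most. As a share of the list, 14 of 114 homeobox, 2 of 17 T-box and 3 of 32 bHLH factors were much alike. The list of 114 homeobox factors outside the Hox clusters gave 14 of the 200 genes. Among them were Pax3, Dlx4, Pax6, Lbx2, Nkx2-2, Nkx1-2, Nkx6-2, Gsx2, Pou4f2, Lhx1, Six3, Vax1 and Nkx2-3. Lmx1a, named above, is not on that list. Of the 114, 16 carried H3K27me3 only, a class of 1.63% of all genes, and 42 carried H3K4me3 only, a class of 51.4%. Pax6, the eye and forebrain factor, had 2.04 and 2.01 RPKM of H3K4me3 and 1.23 and 1.18 of H3K27me3, so its H3K4me3 libraries lay above its H3K27me3 libraries, but the ratio of 0.74 ± 0.39 (SE) did not pass (adjusted p = 0.0722, edgeR with Benjamini-Hochberg adjustment). The 39 Hox genes gave Hoxb1 and Hoxd10, the 19 Sox factors Sox18, the 44 Forkhead factors Foxb2, and the 17 T-box factors Tbx21 and Tbx1. The 32 lineage basic helix-loop-helix (bHLH) factors gave Msc, Ascl2 and Neurog2. Hoxb1, an anterior Hox gene, had 1.21 and 1.22 RPKM of H3K4me3 and 1.72 and 1.51 of H3K27me3, with both H3K27me3 libraries above both H3K4me3 libraries. Neurog2, a proneural factor, had 1.87 and 1.69 against 1.05 and 1.15, with the order turned.

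Secreted ligands with both marks were Wnt3, Wnt6, Fgf11 and Fgf15. Collagens were Col9a2, Col2a1 and Col15a1, epithelial genes Ovol1, Pkp1 and St14, and potassium channels Kcnk4, Kcns1, Kcnj10 and Kcnc2. No gene with both marks was found in the lists of fibroblast matrix and identity, cytoplasmic ribosomal proteins, oxidative phosphorylation, glycolysis, the Ink4/Arf and p53 genes, Polycomb genes, mesenchymal transition factors, Zfp genes, keratins, olfactory receptors, Gata factors, germline genes, glutamate and GABA receptors, or Bmp, Gdf and Tgf-beta ligands. Since such genes are 0.992% of all, most of these lists are too short for a count of 0 to set them apart.

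Among whole families, genes of growth and fibroblast identity stood at the H3K4me3 side, beside the 65.1% called H3K4me3 higher over all genes. All 39 tested genes of fibroblast matrix and identity were called H3K4me3 higher, with a median log2 ratio of 3.54 against 2.57 over all tested genes, and under TMM 22 were, with a median of 1.39. Col1a1, the alpha 1 chain of type I collagen, had 2.08 and 2.05 RPKM of H3K4me3 and 0.150 and 0.164 of H3K27me3, a ratio of 3.68 ± 0.50 (SE, adjusted p = 5.52e-13 by edgeR with Benjamini-Hochberg adjustment), with 2144 and 1614 FPKM. Vim, the intermediate filament vimentin, had 3.04 and 1.58 RPKM against 3 H3K27me3 reads in all, a 43.6-fold ratio with an exact 95% counting interval of 14.5 to 215. Thy1, a fibroblast surface protein, had 2.25 and 1.38 against 0.411 and 0.525, a ratio of 1.93 ± 0.42 (SE), and Fbln1 was lowest in the list at 1.65. The ratios of both turned negative under TMM, to -0.23 and -0.51.

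Of cytoplasmic ribosomal proteins, 80 of 82 tested were called H3K4me3 higher (median 4.41), of oxidative phosphorylation subunits 79 of 84 (3.89) and of glycolysis enzymes 15 of 16 (3.57), and under TMM 75, 64 and 11. Their exceptions were mostly tissue-restricted paralogs. Rpl3l, the muscle paralog of Rpl3, had 0.541 and 0.473 RPKM of H3K4me3 and 0.935 and 0.919 of H3K27me3, and Cox8c, a testis subunit, 0.250 and 0.512 against 0.673 and 0.689. All 23 tested Ink4/Arf, p53 and G1 cyclin genes were called H3K4me3 higher (median 4.02), and 18 under TMM. Cdkn2a, which encodes the p16 and p19 barriers to reprogramming, had 3.12 and 2.01 RPKM against 0.299 and 0.0985, a ratio of 3.70 ± 0.49 (SE). Cdkn1c, an imprinted inhibitor of the cell cycle, was lowest at 1.02, and its ratio was -1.13 under TMM.

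Of 29 Polycomb genes, which encode the enzymes behind H3K27me3 and their partners, 27 were called H3K4me3 higher and 1, Pcgf5, H3K27me3 higher, and under TMM 16 and 3. Ezh2, the PRC2 methyltransferase, had 2.58 and 2.56 RPKM of H3K4me3 and 0.112 and 0.0985 of H3K27me3. Pcgf5 had 0.291 and 0.276 against 0.636 and 0.722, with both H3K27me3 libraries higher and 5.40 and 4.28 FPKM of mRNA. Of 324 Zfp genes, 304 were called H3K4me3 higher and 3 H3K27me3 higher, with a median of 3.51, and under TMM 191 and 23.

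Of 18 mesenchymal transition factors, 15 were called H3K4me3 higher and 1, Tcf21, H3K27me3 higher, and under TMM 5 and 3. Snai2, a repressor of E-cadherin, had 3.62 and 2.44 RPKM of H3K4me3 and 0.112 and 0.0328 of H3K27me3. Tcf21, a bHLH factor of visceral mesenchyme, had 0.583 and 0.670 against 1.46 and 1.25, with mRNA of 0.271 and 0.348 FPKM. Hox genes were intermediate, with 21 of 39 called H3K4me3 higher, 0 H3K27me3 higher and a median of 1.02, and under TMM 1 and 20. Hoxd12 had the lowest ratio, -0.68, which did not pass (adjusted p = 0.11, edgeR with Benjamini-Hochberg adjustment).

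The factors of other lineages stood lower, beside the 4.93% called H3K27me3 higher over all genes. Of 114 homeobox factors outside the Hox clusters, 35 were called H3K4me3 higher and 6 H3K27me3 higher, a share near that over all genes, with a median of 0.54, and under TMM 9 and 86. Meis2, a cofactor of Hox proteins, had the highest ratio, 4.32, with 0.0374 and 0.197 RPKM of H3K27me3. Of 32 lineage bHLH factors, 4 were called H3K4me3 higher and 6 H3K27me3 higher (median -0.25), and under TMM 3 and 29. Twist1, a mesenchymal factor, was highest at 4.50 and Hand1, of heart and trophoblast, lowest at -1.47 ± 0.43 (SE, adjusted p = 0.000975, edgeR with Benjamini-Hochberg adjustment), with 0.666 and 0.276 against 1.01 and 1.58 RPKM. Both ends of this list thus held genes of mesodermal tissues.

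Over all genes tested 65.1% were called H3K4me3 higher and 4.93% H3K27me3 higher, so 1 H3K27me3 call in lists of this size is near or below that share. Sox factors had 9 called H3K4me3 higher and 1 H3K27me3 higher (Sox10) of 19, and Forkhead factors 19 and 1 of 44. Gata factors had 3 and 0 of 6, and T-box factors 6 and 2 of 16. Wnt ligands had 6 and 1 of 19, Fgf ligands 9 and 2 of 22, and Bmp, Gdf and Tgf-beta ligands 10 and 4 of 29. Wnt5a, made by mesenchyme, had 3.54 and 1.93 RPKM of H3K4me3 against 0.224 and 0.230 of H3K27me3, and Wnt8b 0.458 and 0.433 against 1.08 and 1.12. Collagens had 20 and 1 of 41, from the fibrillar Col5a1 at 4.99 to the cartilage Col9a3 at -1.06. Imprinted genes had 32 and 4 of 54, epithelial junction genes 8 and 1 of 35, potassium channels 23 and 8 of 86, and glutamate and GABA receptor subunits 13 and 2 of 47. TMM turned the balance in each of these lists: it gave 4 and 10 for Sox, 7 and 26 for Forkhead, 0 and 3 for Gata, 2 and 10 for T-box, 1 and 15 for Wnt, 0 and 14 for Fgf, and 4 and 19 for Bmp, Gdf and Tgf-beta genes. It gave 7 and 21 for collagens, 12 and 24 for imprinted, 2 and 28 for epithelial, 0 and 71 for potassium channel and 1 and 36 for receptor subunit genes.

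Among the gene lists plotted, keratins had the lowest median, -0.90, with 17 of 43 called H3K27me3 higher and 3 H3K4me3 higher, and under TMM 41 and 0. Krt17, a keratin of basal and appendage epithelium, had 0.208 and 0.158 RPKM of H3K4me3 and 0.598 and 0.788 of H3K27me3. Only 4 of the 46 keratin genes reached the class with H3K27me3 only, and 35 had neither mark above 1 RPKM. Of 1094 olfactory receptor genes, 1080 had neither mark, 454 had enough reads to be tested, and 35 were called H3K27me3 higher and 19 H3K4me3 higher, and under TMM 438 and 0. Germline genes had 4 called H3K27me3 higher and 6 H3K4me3 higher of 26 tested, and under TMM 21 and 0, among 38 members.

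**Figure D3:**
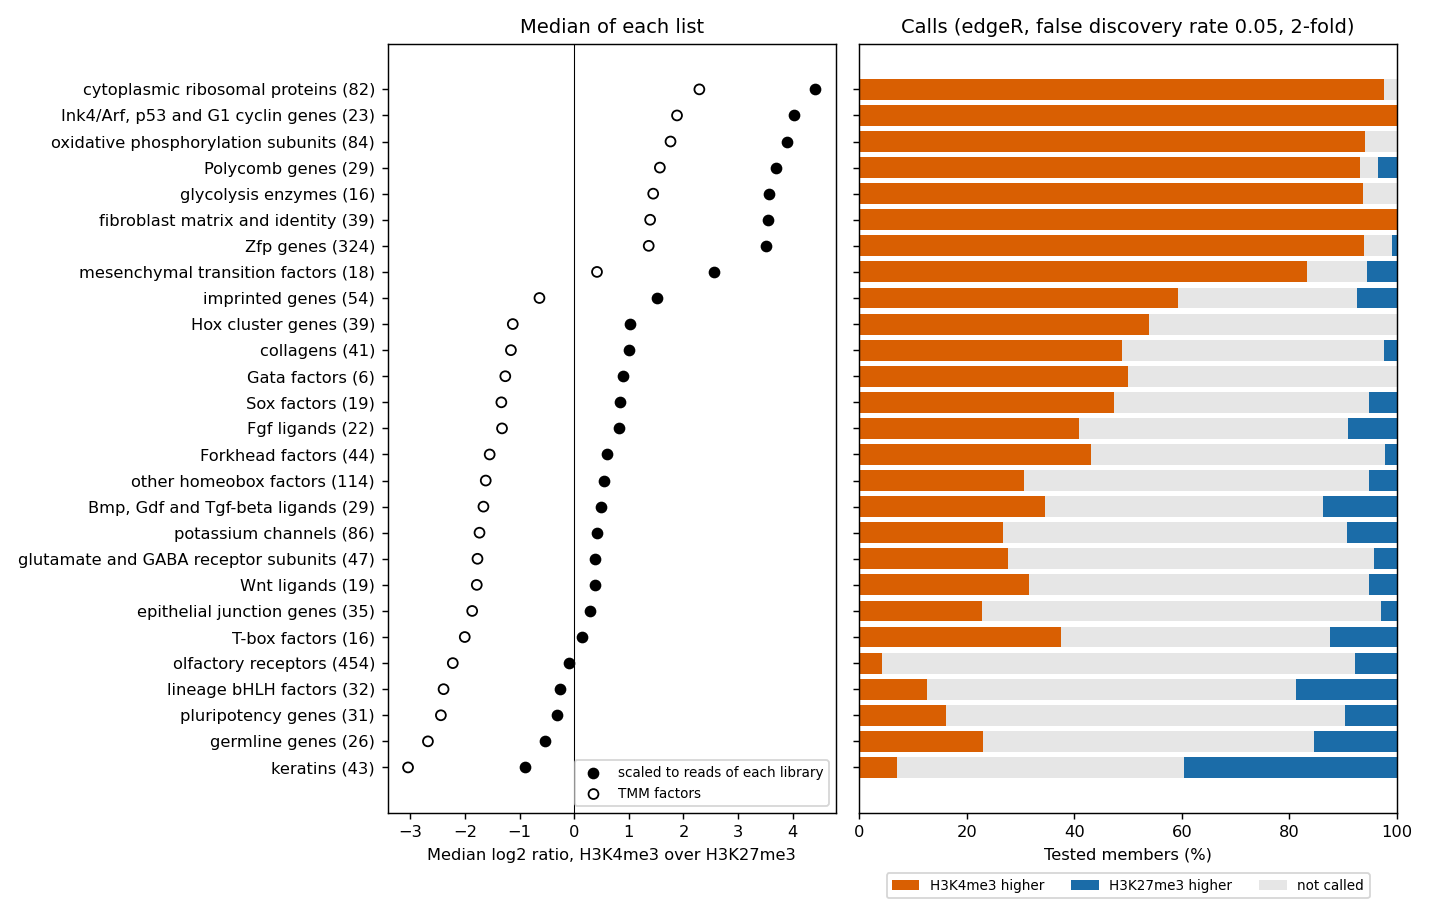
Left, median log2 ratio of H3K4me3 to H3K27me3 over the tested members of each gene list (number tested in brackets), with libraries scaled to their own reads (filled) or by TMM factors (open). Right, percent of tested members called H3K4me3 higher (orange), H3K27me3 higher (blue) or not called (grey); ribosomal proteins stand at the top with a median of 4.41 and keratins at the bottom with -0.90, and TMM moves all lists to the left.

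Pluripotency genes were not of one kind in MEFs. Of 31 tested, 5 were called H3K4me3 higher and 3 H3K27me3 higher, with a median of -0.31, and under TMM 4 and 26. Klf4, a reprogramming factor also used by fibroblasts, had 2.83 and 2.13 RPKM of H3K4me3 and 1 H3K27me3 read in all, a 141-fold ratio with an exact 95% counting interval of 24.9 to 5623. Myc had 2.58 and 2.09 against 0.224 and 0.0657 RPKM. Sox2 had 1.42 and 1.02 RPKM of H3K4me3 and 0.785 and 0.624 of H3K27me3, with mRNA of 0.124 and 0.128 FPKM and a ratio of 0.79 ± 0.41 (SE) that did not pass (adjusted p = 0.0689, edgeR with Benjamini-Hochberg adjustment). Tcfcp2l1 was the 1 pluripotency gene with both marks, 1.12 and 1.38 against 1.08 and 1.08 RPKM. All 4 values lie within the counting interval of a window at 1 RPKM, about 0.64 to 1.49, so its class is uncertain. The study, which defined domains by islands of reads, placed this gene in a repressive domain in MEFs. Nanog had 0.708 and 0.749 against 0.898 and 1.15, with both H3K27me3 libraries higher but a ratio of -0.49 ± 0.41 (SE) that did not pass (adjusted p = 0.27, edgeR with Benjamini-Hochberg adjustment). Lin28a, Lefty1, Lefty2, Sall4 and Dnmt3l carried H3K27me3 only. Ddx4 and Dppa3 carried neither, and Trap1a and Zfp42 had too few reads to be tested.

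Pou5f1, which encodes Oct4, was the gene whose replicates differed most in H3K4me3 and total H3. Replicate 1 held 110 H3K4me3 reads at its TSS (4.58 RPKM) and replicate 2 held 3 (0.118 RPKM), a difference of 4.42 on the log2(RPKM + 0.1) scale that was the largest of 20155 genes, with the next at 2.11. Total H3 also differed most here, 4.25 against 0.453 RPKM, and H3K27me3 stood at 3.93 against 1.15 RPKM, a difference of 1.69 on the log2(RPKM + 0.1) scale that ranked 35 among the genes. H3K9me3 was 0.524 RPKM. Over the 5000 bp either side of the TSS replicate 1 of H3, H3K4me3 and H3K27me3 averaged 5.94, 5.47 and 5.97 RPKM and replicate 2 averaged 0.436, 0.339 and 0.939. The H3 excess was missing from 200 to 1200 bp upstream of the TSS, where H3 was 0.341 RPKM in replicate 1 and 0.532 in replicate 2. The labels give all MEFs an Oct4-GFP transgenic allele, and its part in these reads was not tested. H3K4me3 lay above 1 RPKM in replicate 1 alone, so Pou5f1 was in none of the 4 classes.

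**Figure D4:**
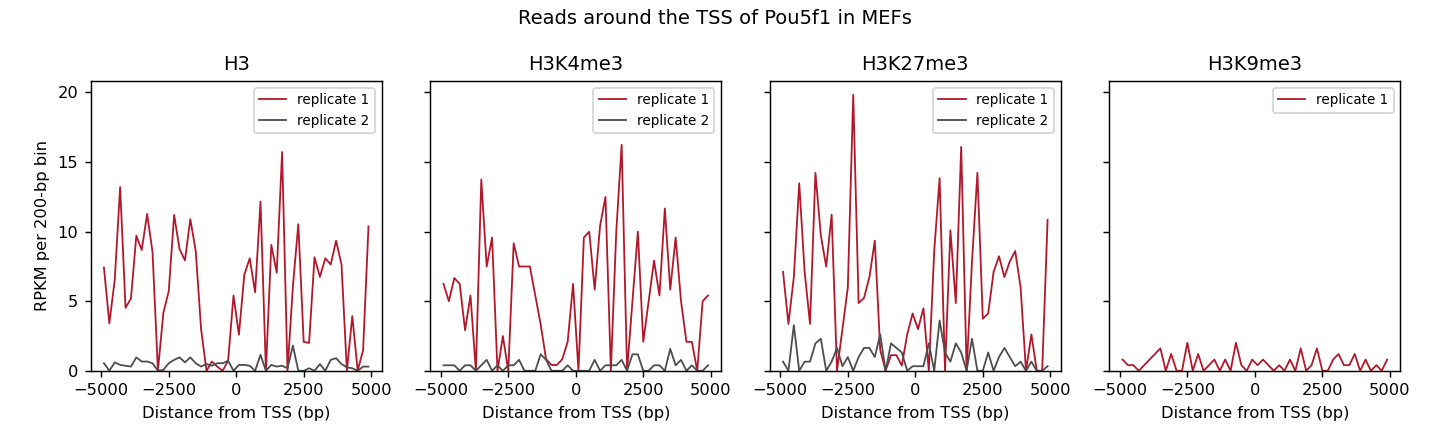
RPKM per 200-bp bin against distance from the Pou5f1 TSS for H3, H3K4me3 and H3K27me3 in replicates 1 (red) and 2 (grey) and for the 1 H3K9me3 library of MEFs. Replicate 1 of the first 3 is high over most of the 10 kb with a gap upstream of the TSS, and replicate 2 and H3K9me3 stay low.

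The shape of the marks around TSSs differed between the classes, after 5 genes with H3 above 1 RPKM in both replicates were left out. At genes with H3K4me3 only, the mark fell to 1.39 and 1.11 RPKM in the 200 bp before the TSS and peaked just after it, at 3.26 and 2.51. Genes with both marks showed no such fall, with 1.85 and 1.44 RPKM before and 2.12 and 1.45 after the TSS. H3K27me3 was broad at genes with both marks, averaging 1.23 and 1.25 RPKM within 1 kb and still 0.993 and 0.951 at 3 to 5 kb. At genes with H3K27me3 only it was 1.21 and 1.26 within 1 kb and 0.890 and 0.902 beyond, and at genes with H3K4me3 only it was lowest at the TSS, 0.204 and 0.224 within 1 kb against 0.366 and 0.397 beyond. Total H3 in that class had a like dip, 0.255 and 0.237 within 1 kb against 0.416 and 0.412 beyond, as did H3K9me3, 0.204 against 0.359, and their part in the shape was not tested. Levels within 1 kb chose the classes, whereas those at 3 to 5 kb did not enter their definition.

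**Figure D5:**
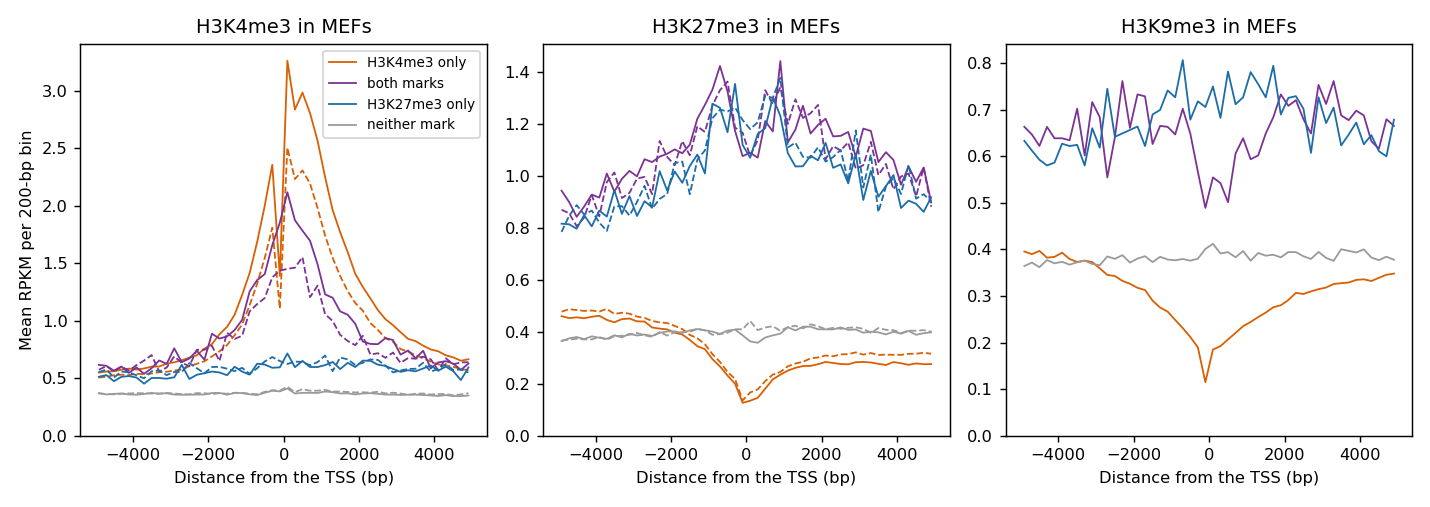
Mean RPKM per 200-bp bin against distance from the TSS in MEFs for each promoter class; solid lines are replicate 1, dashed lines replicate 2 (H3K9me3 has 1 library), and panels have their own y axes. H3K4me3 peaks just after the TSS at genes with H3K4me3 only (3.26 and 2.51 RPKM), and H3K27me3 extends beyond 3 kb at genes with both marks and with H3K27me3 only.

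The X chromosome lacked both H3K27me3 classes. None of its 844 genes carried both marks or H3K27me3 only, and H3K27me3 exceeded 1 RPKM at 1 gene in each library (0.119%), against 6.0% and 7.22% of 19299 autosomal genes. H3K4me3 exceeded it at 30.0% and 22.4% of X-linked genes against 61.5% and 56.7% of autosomal genes. Total H3 was lower there too, with medians of 0.193 and 0.217 RPKM against 0.297 and 0.284, and its part in the marks was not tested.

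The ratio in MEFs was then set against that in pre-iPSCs and iPSCs, with 18422 genes tested. MNase digestion of MEFs differed from that of the other cells, and this cannot be told apart from the cell type. Against iPSCs the ratio was higher in MEFs at 2362 genes (12.8%) and lower at 681 (3.7%), and against pre-iPSCs it was higher at 1052 (5.71%) and lower at 316 (1.72%). The balance depended on scaling: TMM gave 1091 higher and 2087 lower against iPSCs, and 546 and 932 against pre-iPSCs. Against iPSCs 1341, 1352 and 1336 genes were higher in MEFs without MEF H3K4me3 replicate 1, H3K27me3 replicate 1 and H3K27me3 replicate 2, and 302 were lower without the last. Against pre-iPSCs 569 and 576 were higher without MEF H3K4me3 replicate 1 and H3K27me3 replicate 1, and 166 were lower without H3K27me3 replicate 2. Both comparisons use the same MEF libraries and are not independent.

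Of the 200 genes with both marks in MEFs, 92 carried H3K4me3 only in iPSCs, 34 both marks, 0 H3K27me3 only, 0 neither, and at 74 the replicates differed. In pre-iPSCs 69 carried H3K4me3 only, 39 both marks, 3 H3K27me3 only and 7 neither, and at 82 the replicates differed. The 92 and 69 are 46.0% and 34.5% of the 200. Of genes with H3K4me3 only in MEFs, 71.39% and 76.35% were in that class in iPSCs and pre-iPSCs. Of genes whose MEF replicates differed it was 29.3% and 23.6%. Over all genes 1.02% carried both marks in iPSCs and 0.764% in pre-iPSCs. As 113 of the 200 had a lowest MEF value between 1.0 and 1.1 RPKM, these counts are a description. The 39 shared with pre-iPSCs are 19.5% of the MEF list and 25.3% of the 154 genes with both marks there, and the 34 shared with iPSCs are 17.0% of the MEF list and 16.6% of 205. In all 3 cell types 13 genes carried both: Adora1, Ascl2, C1qtnf4, Gcgr, Nkx2-3, Nptx1, Pcdh1, Ramp2, Syt6, Glp1r, Heatr7b1, Sfi1 and 4931408C20Rik. The last 3 are the windows of high total H3.

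Over all genes tested 3.7% had a lower ratio in MEFs than in iPSCs and 1.72% than in pre-iPSCs. Of the 328 genes with H3K27me3 only it was 132 (40.2%) and 38 (11.6%), with none higher. Of the 200 genes with both marks, the ratio of 21 (10.5%) was lower in MEFs than in iPSCs and that of 9 (4.5%) lower than in pre-iPSCs, with none higher. The genes were chosen on MEF libraries that enter these differences, so the counts are a description. They fell to 11, 9 and 8 against iPSCs, and to 5 each against pre-iPSCs, without MEF H3K4me3 replicate 2, H3K27me3 replicate 1 or H3K27me3 replicate 2. TMM, DESeq2 and a 500-bp window gave 103, 65 and 3 against iPSCs and 44, 27 and 4 against pre-iPSCs. Tcfcp2l1 had the largest difference against iPSCs, -2.15 ± 0.53 (SE, adjusted p = 0.00206 by edgeR with Benjamini-Hochberg adjustment). Its H3K27me3 went from 1.08 and 1.08 RPKM in MEFs to 0.179 and 0.554 in iPSCs, with H3K4me3 of 2.19 and 1.58 there. Pax6 had the largest against pre-iPSCs, -3.42 ± 0.70 (SE, adjusted p = 0.000111 by edgeR with Benjamini-Hochberg adjustment), with H3K27me3 of 0.105 and 0.0378 RPKM in pre-iPSCs. In both genes the H3K27me3 libraries of MEFs lay above those of the other cells, without overlap. Both were picked as the largest difference among genes chosen for H3K27me3 in MEFs. Their p-values and this order are therefore a description.

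Transcript levels give a readout outside the definition of the classes. Tested with limma on log2(FPKM + 1), 1278 of 12400 genes (10.3%) were higher in iPSCs than in MEFs and 1927 (15.5%) lower, and 916 (7.39%) were higher and 1116 (9.0%) lower in pre-iPSCs. Of the 200 genes with both marks, 78 passed the filter on low FPKM, of which 30 were higher and 4 lower in iPSCs, and 28 higher and 2 lower in pre-iPSCs. Of the 328 with H3K27me3 only, 75 passed, with 41 higher and 4 lower in iPSCs and 18 higher and 0 lower in pre-iPSCs. Genes near 0 in MEFs passed the filter only through the cells where they are high, so these counts are not support for a difference between classes. Without the filter 10 genes with both marks were higher and 1 lower in iPSCs, and 0 and 0 in pre-iPSCs. Without iPSC RNA-seq replicate 1 the counts in iPSCs were 14 and 1 with both marks and 23 and 0 with H3K27me3 only, and without replicate 2 they were 18 and 1 with both marks and 32 and 0 with H3K27me3 only.

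B3gnt7, a glycosyltransferase, rose most in iPSCs, from 0.0389 and 0.211 FPKM to 52.5 and 49.6. The rise was 5.54 ± 0.45 (SE) on the log2(FPKM + 1) scale, with adjusted p = 0.000755 by limma. B3gnt7 passed the filter only through its values outside MEFs and was picked as the largest rise, so this p-value is a description. Rpp25, a subunit of RNase P, went from 0.811 and 0.375 to 55.0 and 37.4 FPKM. Gldc went from 0.131 and 0.0609 to 24.6 and 25.8 FPKM. All 3 were higher in both iPSC libraries than in both MEF libraries and had a lower ratio in MEFs. Aqp3, a water and glycerol channel, was listed at 0 in both MEF libraries, at 15.3 and 26.0 FPKM in iPSCs and at 32.1 and 15.0 in those of pre-iPSCs. Tcfap2c, an AP-2 factor of trophoblast and germ cells, was also listed at 0 in MEFs and had 13.1 and 28.4 FPKM in iPSCs and 11.3 and 5.02 in pre-iPSCs.

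In iPSCs 12 genes with both marks in MEFs combined a rise in mRNA with a lower ratio in MEFs: A4galt, Aqp3, B3gnt7, Col9a2, Dpysl5, Fbxo27, Fcho1, Gldc, Rhov, Rpp25, Tcfap2c and Tcfcp2l1, beside 31 genes with H3K27me3 only and 227 over all genes. In pre-iPSCs 7 did: Lrrn2, Nfatc2, Pax6, Pllp, Rfx4, S1pr5 and Tcfap2c, beside 8 with H3K27me3 only and 158 over all. The MEF marks chose these genes and the filter on FPKM favours rises, so the coincidence is a description. Npy, the neuropeptide Y gene, rose most in pre-iPSCs, from 0.800 and 4.86 to 80.8 and 649 FPKM (6.15 on the log2(FPKM + 1) scale), and its iPSC values of 2.02 and 4.85 FPKM overlapped those of MEFs. Rfx4, a ciliary and brain factor, had 26.9 and 14.5 FPKM in pre-iPSCs, against 0 and 0.0470 in MEFs and 0.0968 and 0.133 in iPSCs.

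Falls can be seen only at genes with mRNA in MEFs, and 4 of the 6 such genes were called in iPSCs, or 1 when either iPSC library was left out. Col2a1 fell by 3.45 in iPSCs and by 4.20 in pre-iPSCs on the log2(FPKM + 1) scale, from 30.9 and 18.3 FPKM to 1.32 and 1.23 and to 0.734 and 0.0567. Hoxd10 fell in both, and Cxcl14 and Col15a1 fell in iPSCs. The 2 falls in pre-iPSCs became 1 without MEF or pre-iPSC RNA-seq replicate 2 or either iPSC library, and 5 without MEF or pre-iPSC replicate 1. Col2a1 stayed above 1 RPKM of H3K27me3 in both pre-iPSC libraries (1.30 and 1.40), and had 0.967 and 0.960 in iPSCs.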

How the data were processed

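MEFs were profiled by MNase ChIP-seq of H3K4me3, H3K27me3 and H3 (2 libraries each) and H3K9me3 (1 library), and by RNA-seq (2 libraries). Reads were mapped by the authors with Bowtie (1.0.1 in the submitters' processing notes; build mm9), and unique ones went into nucleosome calling by GeneTrack. Deposited values used here are read counts per called nucleosome, and reads outside calls were not used. The mRNA values are FPKM made by the authors with TopHat2 2.0.4 and Cufflinks 2.0.2 and deposited in one table per replicate number. Samples were grouped by their labels.

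Counts within 1000 bp of each TSS were summed at the dyad, RPKM was taken over 2001 bp, and mark presence needed over 1 RPKM in both replicates. TSSs are those of the expression tables, and sequences are from the mm9 assembly. On either strand, left coordinates of 11812 genes matched the mm9 gene annotation with an offset of 1. Right coordinates matched at 11700 genes with an offset of 0. The match checked how positions are counted, not each TSS. A total of 2265 genes have another TSS within 2000 bp. Counts were tested with edgeR 4.0.16 (quasi-likelihood, libraries scaled to their summed reads, false discovery rate of 0.05 and 2-fold), the difference of ratios by an interaction term, and FPKM with limma 3.58.1 on log2(FPKM + 1) for a mean of at least 0.5 FPKM, with the table as a term. Alternatives were TMM, DESeq2 1.42.0, other windows and thresholds, and leaving out libraries. DESeq2 scaled the libraries by its own factors, so like TMM it changed the scaling. Intervals cover counting error only. The edgeR and limma tests were also run on simulated data with planted changes, and DESeq2 was not. The spread of the simulated counts was a set value, not taken from these libraries.

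The members and gene lists were chosen with earlier results of these data known. Some items are not reported here. The genes named include the 10 at each end among called genes with the mark in both replicates and no overlap between the marks. Others are the 15 with the highest lowest value of both marks, genes the study names and the reprogramming factors. Each list gave its highest and lowest member and up to 4 members with both marks. The comparisons with the other cells gave their largest changes. Other genes were named after their values were seen: those at the presence threshold, Thy1, Ezh2, Vim and members of short counts.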

Additional observations from a re-analysis of the deposited data

Results flagged for a closer look

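The ratio of H3K4me3 to H3K27me3 differed between cell types by a test of the interaction itself (edgeR, false discovery rate of 0.05 and 2-fold). Against pre-iPSCs it was higher in MEFs at 1052 genes and lower at 316, and against iPSCs higher at 2362 and lower at 681. MNase digestion differed between MEFs and the other cells and cannot be told apart from cell type, and both comparisons use the same MEF libraries.

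The largest differences among the genes called were, against pre-iPSCs, Cenpi (-5.12), Ceacam1 (-5.06) and Nkrf (-4.71) for a lower ratio in MEFs, and Zfp948 (6.05), Ammecr1l (5.97) and Zfyve16 (5.88) for a higher ratio, all on the log2 scale. Against iPSCs they were Ceacam1 (-4.55), L1td1 (-4.47) and Ankrd6 (-4.39) for a lower ratio, and Zfyve16 (6.80), Zfp948 (6.60) and Gapdh (6.34) for a higher ratio. Zfp948, Ammecr1l, Zfyve16 and Gapdh have 0 H3K27me3 reads in MEFs, so their fitted differences depend on the prior count and are no measure of size.

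The groups held 2 libraries each, which is too few for a search for single outlying libraries within a group.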

How the results depend on the processing

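Of genes called H3K4me3 higher (11405) and H3K27me3 higher (864), TMM gave 7155 and 6372, DESeq2 3730 and 5967, and a 500-bp window 359 of the latter; leaving out 1 library gave 10974 to 11553 and 588 to 861. The 200 genes with both marks became 2 above 2 RPKM, 21 scaled to unique reads and 636 with calls of at least 2 reads, and 451 to 527 with 1 replicate. H3K9me3 exceeded 1 RPKM at 12 genes with both marks and at 52 with H3K27me3 only. Within these same classes H3K9me3 exceeded 2 RPKM at 3 and 0 genes. With calls of at least 2 reads the counts above 1 RPKM were 29 and 94. With 1 RNA-seq replicate, an alternative chosen after seeing the data, 11 to 19 genes with both marks reached 1 FPKM.

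Against pre-iPSCs the higher ratios (1052) became 546 (TMM), 181 (DESeq2), 167 (500 bp) and 569 to 1445 without 1 library, the lower ones (316) 932 (TMM), 52 (500 bp) and 166 to 269, and those of genes with both marks (9) 44 (TMM), 27 (DESeq2), 14 (replicate block), 4 (500 bp) and 5 to 8. Against iPSCs the higher (2362) became 1091, 325, 290 and 1336 to 3012, the lower (681) 2087, 1223, 100 and 302 to 593, and those with both marks (21) 103, 65, 3 and 8 to 14, in the order TMM, DESeq2, 500 bp and without 1 library. Such fits assume that a lone library varies like the other groups.

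Without a filter on FPKM, genes with both marks were 0 higher and 0 lower in pre-iPSCs and 10 and 1 in iPSCs, and those with H3K27me3 only 0 higher in pre-iPSCs and 18 and 0 in iPSCs. Without 1 RNA-seq library these counts were 21 to 32 and 1 to 5 in pre-iPSCs and 14 to 32 and 1 to 6 in iPSCs with both marks, and 15 to 22 and 0 to 2 in pre-iPSCs and 23 to 42 and 0 to 4 in iPSCs with H3K27me3 only. Without the replicate block 1 gene with H3K27me3 only was lower in pre-iPSCs.

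Ratios of 6 of 77 named genes reversed under TMM and DESeq2: Cenpi (-0.060 and -0.23), Fbln1 (-0.51 and -0.64), Cdkn1c (-1.13 and -1.34), Olfr384 (-0.0048 and -0.17), Krt80 (-0.49 and -0.66) and Kcnc2 (-1.03 and -1.21). Both rescale the libraries, so they are not separate checks. The labels do not say whether libraries with the same replicate number share a source. Differences between replicates of H3K4me3 and H3K27me3 correlated at 0.013 over 17521 genes. Counting error enters these differences, so the correlation cannot decide this, and at Pou5f1 replicate 1 was the higher in both marks. A replicate block gave 11405 and 870 calls between the marks and changed no call of the 77. Of called genes named outside the 77, Thy1, Efhd1 and Nptx1 were also negative under TMM (-0.23, -1.12 and -1.03). Few H3K27me3 reads at most TSSs limit the precision at the H3K4me3 end, and counting error alone spreads a window at 1 RPKM over about 0.64 to 1.49.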
